A study of Saccharomyces cerevisiae with 18 samples.

Results

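The Swi-Snf complex was compared here through the loss of either of 2 subunits, Snf5 and Snf2, in budding yeast cells that had just been given cysteine. The comparison is between 6 of the 18 RNA-seq libraries of the study, 3 of *snf5Δ* and 3 of *snf2Δ* cells. It covers all 5757 genes with enough counts among the 7127 in the table. The spread behind its p-values was estimated from all 18 libraries. All strains were of the BY4741 background (*MATa his3Δ1 leu2Δ0 met17Δ0 ura3Δ0*), so the cells of every group lacked *MET17*, whose product makes homocysteine from sulfide, and carried the other auxotrophic mutations. The *snf2Δ* and *snf5Δ* strains carried a KanMX4 cassette in place of the gene and came from the yeast deletion collection. Cells were grown to log phase in YPD, a rich glucose medium, and cysteine was then added to 3 mM for 30 min (YPD+Cys). The wild type (wt) in YPD+Cys and both mutants in YPD without added cysteine, 3 libraries each, are used below to place the differences. Total RNA was depleted of ribosomal RNA and sequenced. Each mutant was 1 strain. The sources used here do not say that the 3 libraries of a group came from separate cultures. The p-values thus measure the spread between libraries within the groups.

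Swi-Snf is a chromatin remodelling complex that uses ATP to slide and evict nucleosomes, often at the promoters of inducible genes. Snf2 is the catalytic ATPase of the complex, and Snf5 is a core subunit that takes part in its assembly and in its contact with the nucleosome and with activators. Both subunits were found through mutants that could not derepress *SUC2*, the invertase gene, and loss of either is commonly used to inactivate the complex. A direct comparison of *snf5Δ* with *snf2Δ* asks where the loss of the core subunit and the loss of the ATPase leave different amounts of RNA. Fewer cells of a kind and less RNA per cell cannot be told apart in such bulk libraries.

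The *snf2Δ* libraries with cysteine held 4158534 to 4845830 counts in genes and the *snf5Δ* libraries 3429514 to 4209230. Levels are given as CPM, the counts per 1e+06 counts of a library after TMM scaling, and differences as log2 fold changes of *snf5Δ* over *snf2Δ* with their standard error (SE) and an adjusted p (edgeR quasi-likelihood test, Benjamini-Hochberg). The summed level of 6 markers of a cells was 543 to 610 CPM in *snf2Δ* and 464 to 507 in *snf5Δ* against 1650 to 1895 in wt, and 4 markers of alpha cells summed to at most 35.3 CPM in any of these groups. No count fell on *LEU2*, *MET17* or *URA3* in the 6 libraries (0 each), and 77 to 167 fell on *HIS3*, of which the background keeps a part. *SNF5* (YBR289W) had 61.6, 55.3 and 55.4 CPM in *snf2Δ* and 0, 0.205 and 0.274 in *snf5Δ*, which is 789 counts against 2, a ratio of 347 (95% exact binomial interval 95.7 to 2870, counting error only). *SNF2* (YOR290C) had 1.54, 1.25 and 2.11 CPM in *snf2Δ* against 189, 187 and 157 in *snf5Δ*. Each library thus had the deletion that its label names. The other 10 subunits of the complex had log2 fold changes of *snf5Δ* over *snf2Δ* between -0.32 and 0.12, and none passed the test (smallest adjusted p = 0.59).

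At an adjusted p under 0.05, 79 genes (1.37% of those tested) were higher and 67 (1.16%) were lower in *snf5Δ* than in *snf2Δ* with cysteine, *SNF2* and *SNF5* included, which together is 2.54% of the genes. The mutants thus differed from each other at far fewer genes than each differed from wt in the same medium, where 19.3% of the genes passed the test in *snf2Δ* and 21.1% in *snf5Δ*. Of the 146 genes, 49 were more than 2-fold higher and 36 more than 2-fold lower, and 9 and 10 passed 4-fold. The libraries of the 2 strains did not overlap in any of the 146 genes, as in 17.2% of all tested genes. Over all tested genes the log2 fold change had a median of -0.003, but of 0.30 on the log2(TPM + 1) scale of the deposited TPM values (transcripts per 1e+06, scaled by gene length). With limma on that scale, 45 genes were higher and 5 lower, so that 90% of the calls were higher in *snf5Δ* in place of 54.1%. The counts of higher and lower genes also went down to 40 and 38 without *snf5Δ* replicate 2, and were 46 and 43 without *snf2Δ* replicate 1, 42 and 39 without *snf2Δ* replicate 2 and 50 and 38 without *snf5Δ* replicate 1.

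**Figure D1:**
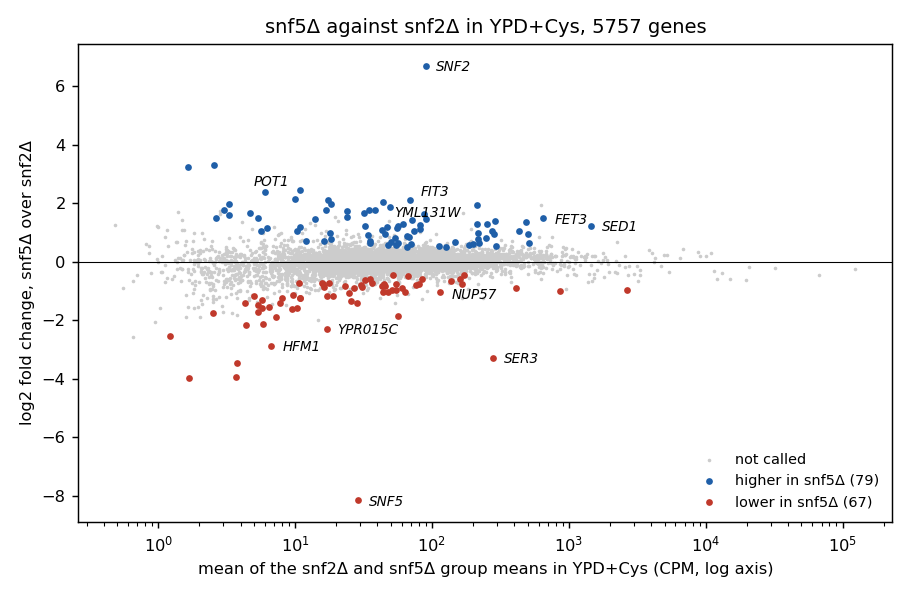
Log2 fold change of *snf5Δ* over *snf2Δ* in YPD+Cys against the mean level in CPM (log axis) for the 5757 tested genes, with 1 point per gene; the 79 higher genes are blue and the 67 lower genes red. Apart from the 2 deleted genes, *SER3* stands out among genes of high level, at a log2 fold change of -3.28.

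Against wt, the 146 genes fell into a few patterns. Of the 79 genes higher in *snf5Δ*, 34 were above wt in *snf5Δ* alone, 15 were below wt in *snf2Δ* alone, 18 were above wt in both mutants and 6 were below wt in both, at an adjusted p under 0.05 in each comparison with wt. Of the 67 lower genes, 26 were below wt in *snf5Δ* alone and 22 above wt in *snf2Δ* alone, 8 were below wt in both and 2 above wt in both. A further 5 higher and 8 lower genes were called against wt in neither mutant. In 1 higher and 1 lower gene the mutants lay on opposite sides of wt. A gene counted here for 1 mutant alone missed the threshold in the other, and the comparisons share the libraries. Examples of the patterns follow by function.

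Among the genes that were higher in *snf5Δ* were 3 of the high-affinity iron uptake system. In yeast the activators Aft1 and Aft2 turn on this system when iron is short. Fet3 is a copper-dependent ferroxidase at the plasma membrane, Ftr1 is the iron permease that works with it, and Fit3 is a cell wall mannoprotein that helps to hold siderophore-bound iron. The sequences between 350 and 101 bases before the start codon of these 3 genes are shown because each holds TGCACCC, the core of the site that Aft1 binds, printed in capitals here on whichever strand it lies. Sequences are from the RefSeq R64 assembly, which is sacCer3, 5′ to 3′ on the strand of the gene, at chr13:388472-388721 (plus strand) for *FET3*, chr5:461841-462090 (minus strand) for *FTR1* and chr15:1061156-1061405 (minus strand) for *FIT3*.
FET3: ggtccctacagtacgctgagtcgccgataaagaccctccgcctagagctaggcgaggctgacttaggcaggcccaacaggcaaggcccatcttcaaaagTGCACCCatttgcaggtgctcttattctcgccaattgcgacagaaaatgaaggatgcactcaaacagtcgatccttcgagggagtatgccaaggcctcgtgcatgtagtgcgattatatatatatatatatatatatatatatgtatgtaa
FTR1: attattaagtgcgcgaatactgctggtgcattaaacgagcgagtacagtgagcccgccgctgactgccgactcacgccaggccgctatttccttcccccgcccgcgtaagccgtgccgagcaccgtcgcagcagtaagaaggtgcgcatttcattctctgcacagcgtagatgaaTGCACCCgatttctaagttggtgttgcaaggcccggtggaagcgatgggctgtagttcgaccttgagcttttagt
FIT3: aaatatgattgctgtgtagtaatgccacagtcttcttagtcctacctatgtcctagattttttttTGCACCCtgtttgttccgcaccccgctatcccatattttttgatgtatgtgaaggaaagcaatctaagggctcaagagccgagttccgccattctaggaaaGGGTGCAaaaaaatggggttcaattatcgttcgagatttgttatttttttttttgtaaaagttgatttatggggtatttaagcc

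The match starts 251 bases before the start codon in *FET3* and 175 bases before it in *FTR1*, and *FIT3* has matches at 285 and at 184 bases. TGCACCC, searched on both strands, is in 1.25% of the 5513 nuclear promoters of tested genes in the same window and in 15 of the 26 genes of the iron uptake list. *FET3*, *FTR1* and *FIT3* were the only 3 of the 79 higher genes with a match, and none of the 65 lower genes with a promoter in the set had one. The window was chosen after one that ended at the start codon had been seen to cut the *FET3* match. A match of letters is a description and not evidence of binding.

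*FIT3* (YOR383C) had 29.8, 27.0 and 20.7 CPM in *snf2Δ* and 144, 90.4 and 101 in *snf5Δ*, against 155, 147 and 118 in wt. The *snf5Δ* libraries were all above the *snf2Δ* libraries, and the *snf2Δ* libraries all below wt. Its log2 fold change was 2.12 (SE 0.24, adjusted p = 6.0e-05). *FTR1* (YER145C) had 119, 129 and 123 CPM in *snf2Δ*, 314, 318 and 281 in *snf5Δ* and 477, 311 and 475 in wt, with a log2 fold change of 1.3 (SE 0.19, adjusted p = 9.2e-04). *FET3* (YMR058W) had 295, 550 and 183 CPM in *snf2Δ* and 979, 1072 and 833 in *snf5Δ*, both below the 1509 to 2083 of wt. The *snf2Δ* libraries of *FET3* were spread from 183 to 550, and its log2 fold change of 1.49 (SE 0.32, adjusted p = 0.0174) lost the call when *snf2Δ* replicate 1 (adjusted p = 0.0983), *snf5Δ* replicate 1 (0.0555) or *snf5Δ* replicate 2 (0.0734) was left out. In *snf2Δ* all 3 genes were below wt, with log2 fold changes of -2.44, -1.77 and -2.42 for *FIT3*, *FTR1* and *FET3*.

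The rest of the iron list did not follow. Of its 26 genes, 3 (11.5%) were called higher and 0 lower, against 1.37% and 1.16% of all genes. The median log2 fold change was 0.15 against -0.003 for all genes. The siderophore transporter gene *SIT1* had 0.83 (adjusted p = 0.19) and *FIT2*, a cell wall mannoprotein gene like *FIT3*, had 0.89 (adjusted p = 0.20), while *FIT1*, which also holds a TGCACCC match, had -0.20 (adjusted p = 0.83). *AFT1* itself had 0.15 (adjusted p = 0.75).

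Stress genes leaned towards *snf5Δ* more broadly. Of 30 genes for chaperones and general stress proteins, 3 (10%) were called higher and 0 lower, against 1.37% and 1.16% of all genes. A positive log2 fold change was found for 27, and the median was 0.50. At an unadjusted p under 0.05, 12 of the 30 were higher and 0 lower, against 5.89% of all genes higher and 7.04% lower. *SSA3* (YBL075C), a stress-induced Hsp70 chaperone gene, had 33.1, 38 and 55.2 CPM in *snf2Δ* and 106, 177 and 112 in *snf5Δ*, against 22.3 to 28.2 in wt. The 3 groups of libraries did not overlap, and the log2 fold change was 1.64 (SE 0.24, adjusted p = 9.2e-04). *HSP82*, the inducible Hsp90, had 225, 175 and 187 CPM in *snf2Δ* and 374, 492 and 260 in *snf5Δ* (log2 fold change 0.94, adjusted p = 0.0280), and *SSA4*, another Hsp70, had 49.4, 38 and 57.3 against 75.0, 108 and 78.7 (log2 fold change 0.86, adjusted p = 0.0429). These last 2 calls were weak. That of *HSP82* was lost when *snf2Δ* replicate 2 or 3 was left out (adjusted p = 0.16 and 0.0635), or *snf5Δ* replicate 1 or 2 (0.0847 and 0.185), and that of *SSA4* in every such fit but the one lacking *snf2Δ* replicate 3 (0.061 to 0.258).

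Larger differences did not always pass. *HSP26*, a small heat shock protein gene, had 172, 92.0 and 509 CPM in *snf2Δ* and 843, 1229 and 903 in *snf5Δ*, far above the 7.80 to 27.3 of wt, and its log2 fold change of 1.94 had an adjusted p of 0.0821. *CTT1*, the cytosolic catalase T, had 68.0, 45.8 and 124 CPM against 220, 335 and 211 (log2 fold change 1.68, adjusted p = 0.0960). In both genes the libraries of the mutants did not overlap, but the *snf2Δ* libraries were wide apart, with replicate 3 highest and replicate 2 lowest.

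The heat shock factor Hsf1 binds inverted repeats of GAA, and 1 arrangement, TTCNNGAA, was searched on both strands between 350 and 101 bases before the start codon. It is in 11.3% of all promoters in the set and in 13 of the 30 stress genes. It is shown for *HSP82* (chr16:98726-98975, minus strand) and *SSA4* (chr5:364239-364488, plus strand), which hold 1 match each in capitals, beside *SSA3* (chr2:86549-86798, minus strand), which differed most of these 3 and holds none in this window. Of the 79 higher genes 9 (11.4%) hold the arrangement, and 27 (34.2%) hold AGGGG, the stress element bound by Msn2 and Msn4, which is in 20.5% of all promoters and in 12 of the 65 lower ones (18.5%).
HSP82: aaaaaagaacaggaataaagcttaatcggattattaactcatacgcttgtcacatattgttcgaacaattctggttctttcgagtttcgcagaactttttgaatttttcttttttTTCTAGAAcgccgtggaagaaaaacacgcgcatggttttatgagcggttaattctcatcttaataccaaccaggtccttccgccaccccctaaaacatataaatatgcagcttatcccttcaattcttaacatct
SSA4: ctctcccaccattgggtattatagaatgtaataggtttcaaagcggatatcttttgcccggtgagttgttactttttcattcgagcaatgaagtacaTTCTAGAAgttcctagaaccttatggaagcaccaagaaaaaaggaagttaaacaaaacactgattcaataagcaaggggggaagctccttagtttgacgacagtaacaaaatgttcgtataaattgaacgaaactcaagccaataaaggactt
SSA3: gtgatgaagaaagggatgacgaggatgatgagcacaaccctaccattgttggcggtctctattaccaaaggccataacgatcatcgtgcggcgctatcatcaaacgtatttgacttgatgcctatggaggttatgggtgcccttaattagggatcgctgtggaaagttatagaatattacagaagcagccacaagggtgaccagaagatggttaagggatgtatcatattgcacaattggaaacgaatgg

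Of the 4 ribonucleotide reductase genes, which make DNA precursors, *RNR2* and *RNR3* were called higher. *RNR2* (YJL026W), the small subunit gene of ribonucleotide reductase, had 242, 257 and 338 CPM in *snf2Δ*, 512, 657 and 578 in *snf5Δ* and 215 to 298 in wt. Its log2 fold change was 1.06 (SE 0.18, adjusted p = 0.00282). *RNR3*, a damage-induced large subunit gene, had 7.28, 6.75 and 5.75 CPM against 12.6, 21.1 and 11.2 (log2 fold change 1.20, adjusted p = 0.0076), a call lost without *snf5Δ* replicate 2 (adjusted p = 0.0708). For *RNR2* the *snf2Δ* libraries lay at the level of wt (log2 fold change against wt of 0.18, adjusted p = 0.552), and the *snf5Δ* libraries stood above both. *RNR1*, the main large subunit gene, and *RNR4*, the other small subunit gene, had 0.21 and 0.17 (adjusted p = 0.78 and 0.70), and *HUG1* had 1.64 (adjusted p = 0.0556).

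Mitochondrial energy genes mostly had small positive differences. In the list of 45 TCA cycle and respiratory chain genes, 38 had a positive log2 fold change and the median was 0.35. Against 1.37% of all genes higher and 1.16% lower, 4 of the list (8.89%) were called higher and 0 lower. They were *QCR2*, of respiratory complex III, at 0.68, *ATP1* and *ATP3*, the alpha and gamma subunits of the F1 ATPase, at 0.65 and 0.62, and *ACO1*, aconitase, at 1.00. At an unadjusted p under 0.05, 19 were higher and 0 lower, against 5.89% of all genes higher and 7.04% lower. All 4 calls were lost when replicate 2 of either mutant was left out (adjusted p from 0.0734 to 0.211), and those of *ACO1*, *ATP1* and *ATP3* in 5 of the 6 fits that left out a library, all but the fit lacking *snf5Δ* replicate 3 for *ACO1* and *snf2Δ* replicate 3 for *ATP1* and *ATP3*. Outside the list, the gene of the ADP/ATP carrier, *PET9*, went from 181 to 319 CPM (log2 fold change 0.82), that of the mitochondrial phosphate carrier, *MIR1*, from 160 to 272 (0.77), and that of the ATPase inhibitor, *INH1*, from 23.3 to 44.5 (0.92), all called and chosen after their values were seen. The calls of *PET9*, *MIR1* and *INH1* were not followed through the fits that left out a library. The 24 tested genes of the mitochondrial chromosome had a median of -0.35 and 0 calls, and 7 protein-coding genes among them, taken as a list, had a median of -0.17.

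**Figure D2:**
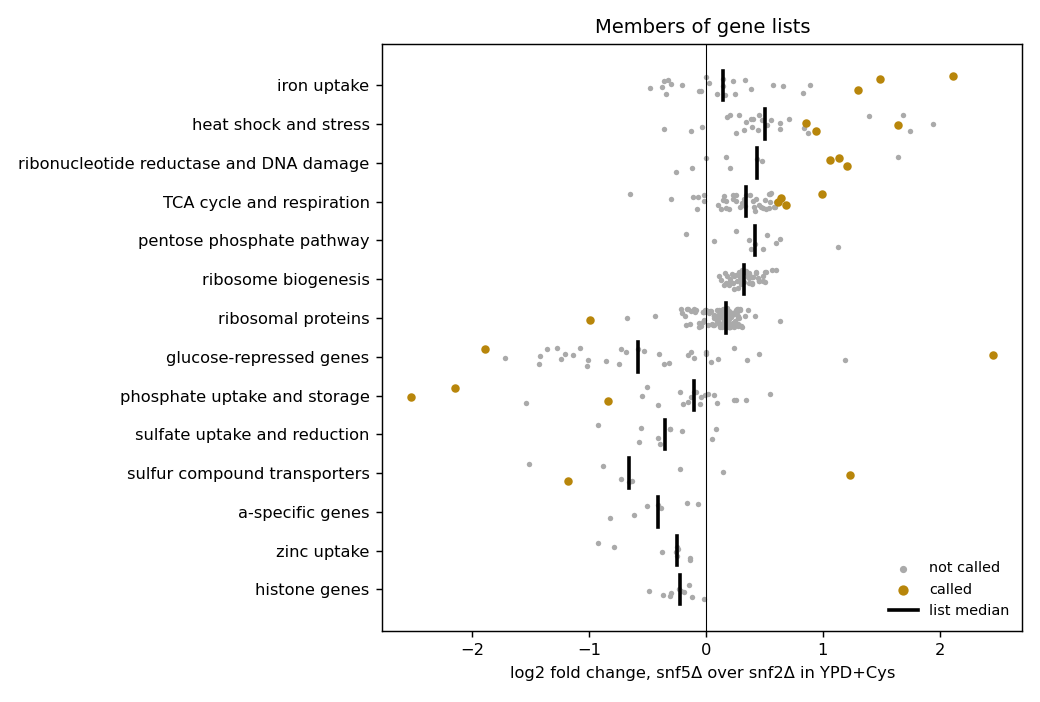
Log2 fold change of *snf5Δ* over *snf2Δ* in YPD+Cys for the members of 14 gene lists; each point is a gene, called genes are gold, and the black bar is the median of the list. All 51 ribosome biogenesis genes lie between 0.11 and 0.60 with 0 calls, while the 33 glucose-repressed genes spread from -1.89 to 2.46.

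Ribosome biogenesis genes, which encode the factors that build ribosomal subunits, shared a direction. All 51 had positive log2 fold changes, from 0.11 to 0.60 with a median of 0.33, yet 0 passed the test (smallest adjusted p = 0.167) and 3 had an unadjusted p under 0.05. Of all tested genes, 5.89% were higher at that level. The 137 ribosomal protein genes had a median of 0.17. Only *RPS23A* was called among them, in the lower direction, and it lies in the chromosome VII stretch described below and has a near copy, *RPS23B*, that shares reads with it. The 11 genes of the pentose phosphate pathway had a median of 0.42 and the 22 of glycolysis and fermentation 0.21, with 0 and 1 called. All 13 translation elongation genes (median 0.24) and all 11 of branched-chain amino acid synthesis (median 0.32) were positive as well, with 0 calls.

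Some lists had the opposite lean with 0 calls. The 10 histone genes were all negative with a median of -0.22, and so were the 9 genes of zinc uptake, at -0.25. On the TPM scale these medians were 0.09 and 0.01, which is -0.21 and -0.28 relative to the median of all genes there. The 14 subunit genes of RSC, the abundant remodeller related to Swi-Snf, had a median of -0.06, and the 17 genes of SAGA and Mediator, coactivators that work beside Swi-Snf, had -0.02, both with 0 calls. In TPM these 2 medians were -0.04 and -0.03 relative to all genes.

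**Figure D3:**
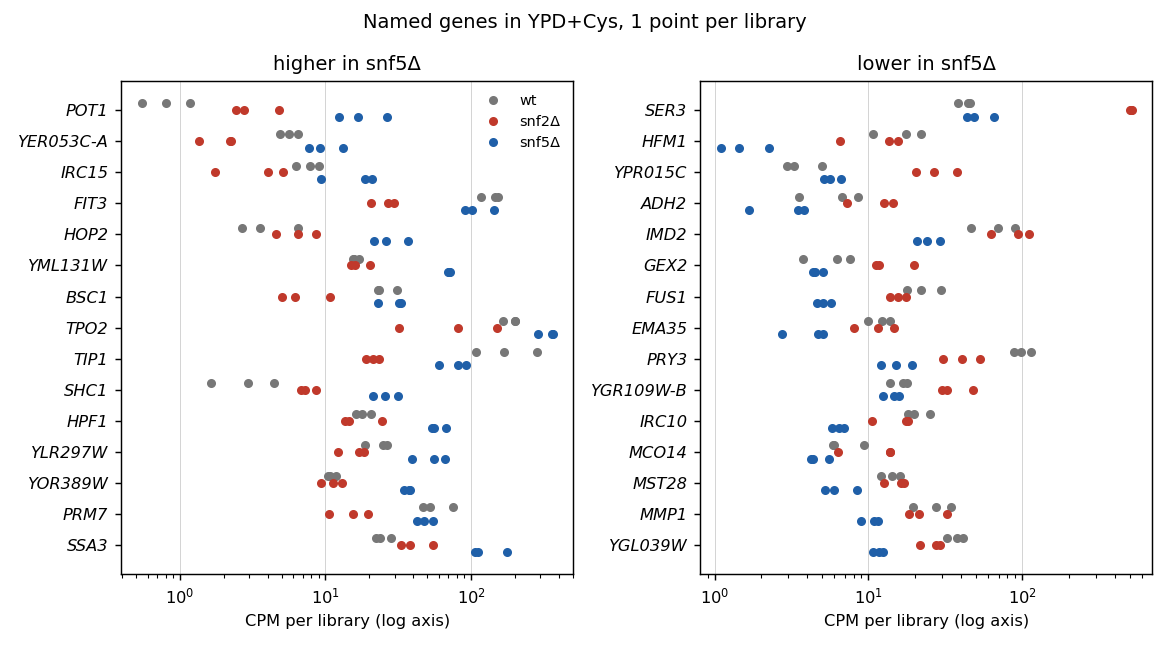
CPM in each library (log axis) of the 15 genes with the largest higher and the 15 with the largest lower difference under the naming rule; grey, red and blue points are the 3 libraries each of wt, *snf2Δ* and *snf5Δ* in YPD+Cys. *YML131W* has *snf2Δ* and wt points together and *snf5Δ* points above them, while *SER3* has *snf5Δ* and wt points together and *snf2Δ* points above them.

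Single genes showed the patterns more clearly than the groups. *YML131W* (chromosome XIII), a gene of unknown function with an oxidoreductase-like product, had 15, 16 and 20.1 CPM in *snf2Δ* and 70.3, 71.8 and 69.6 in *snf5Δ*, and 15.5 to 16.9 in wt. Only *snf5Δ* stood apart (log2 fold change 2.04, SE 0.16, adjusted p = 8.1e-07), and *YOR389W*, of unknown function, did the same with 9.39 to 13 CPM in *snf2Δ*, 34.8 to 38.1 in *snf5Δ* and 10.4 to 11.7 in wt (log2 fold change 1.72, adjusted p = 5.1e-06). *POT1* (YIL160C), the peroxisomal thiolase of fatty acid oxidation, had 2.43, 2.75 and 4.79 CPM in *snf2Δ* and 12.4, 26.6 and 16.7 in *snf5Δ* (log2 fold change 2.46, adjusted p = 8.9e-04). It had 0.545 to 1.17 CPM in wt, so that both mutants were above wt, *snf5Δ* the more so. *GPP2*, a glycerol-3-phosphatase of glycerol synthesis, had 172, 109 and 200 CPM against 390, 466 and 409 (log2 fold change 1.39, adjusted p = 0.00115), and *LYS1*, saccharopine dehydrogenase of lysine synthesis, had 34.6, 27.8 and 40.6 against 62.7, 83.3 and 92.7 (log2 fold change 1.21, adjusted p = 9.2e-04). Both were also above wt in each mutant.

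Several called genes encode proteins of the cell surface and are described together, without a test of the group. *TIP1*, a cell wall mannoprotein gene, had 21.2, 19 and 23.2 CPM in *snf2Δ*, 81.5, 92.7 and 60.1 in *snf5Δ* and 109, 168 and 282 in wt (log2 fold change 1.88, adjusted p = 0.00172). Both mutants were below wt and *snf2Δ* lay lowest. *HPF1*, a cell wall mannoprotein gene, had 24.3, 14.5 and 13.6 CPM against 67.5, 55.6 and 54.3, with wt at 16.1 to 20.5 (log2 fold change 1.76, adjusted p = 0.00282). *TPO2*, a polyamine exporter gene of the plasma membrane, had 150, 32 and 81.3 CPM in *snf2Δ* and 363, 365 and 288 in *snf5Δ* (log2 fold change 1.95, adjusted p = 0.00525), with *snf2Δ* libraries that were spread from 32 to 150. Its call was lost with only the groups compared in the fit (adjusted p = 0.0773). *PRM7* and *BSC1*, which neighbour each other on chromosome IV, had 15.4, 10.5 and 19.7 CPM and 6.18, 5.0 and 10.7 CPM in *snf2Δ*, against 42.8 to 55.1 and 23.1 to 32.9 in *snf5Δ* and 46.9 to 75.5 and 23.1 to 30.8 in wt. The *snf5Δ* libraries of this pair were at the level of wt and only *snf2Δ* was below it (log2 fold changes of *snf2Δ* over wt -1.92 and -1.79). *SED1*, a major structural protein gene of the cell wall, had 595 to 1173 CPM in *snf2Δ* and 1843 to 2338 in *snf5Δ* (log2 fold change 1.22, adjusted p = 0.0102), a call that did not hold when *snf2Δ* replicate 1 or 2 (adjusted p = 0.0667 and 0.0714) or *snf5Δ* replicate 2 (0.0639) was left out.

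Of the other genes with the largest higher values, *SHC1*, a sporulation-specific chitin synthase activator gene, had 6.84 to 8.62 CPM in *snf2Δ* and 21.1 to 31.3 in *snf5Δ*, *HOP2*, of meiotic chromosome pairing, had 4.6 to 8.61 and 21.7 to 36.7, and *IRC15*, a microtubule-associated protein gene that overlaps *CTF19* in the annotation, had 1.75 to 5.08 and 9.32 to 20.8. *YLR297W*, of unknown function, had 12.3 to 18.3 and 39.2 to 65.9. The libraries of the 2 mutants did not overlap in any of these 4 genes. The value of *YER053C-A*, with 1.34 to 2.25 CPM against 7.68 to 13.2, turned from a log2 fold change of 2.37 in the counts to -0.16 in TPM. Smaller differences were found for *ERG25*, a sterol methyl oxidase gene, at 0.95, *THI7*, the thiamine transporter gene, at 0.88, and *TNA1*, the nicotinic acid permease gene, at 0.55, the last lost in every leave-one-out fit but that without *snf2Δ* replicate 2 (adjusted p from 0.0535 to 0.0719). *APM3*, which lies beside *SNF5*, had 37.1, 44.5 and 34.9 CPM in *snf2Δ*, 69.1, 63.8 and 70.7 in *snf5Δ* and 42.5 to 47.1 in wt (log2 fold change 0.81, adjusted p = 9.8e-04). The other 3 genes beside the deleted genes, *BSD2*, *YOR289W* and *YPK9*, had 0.02, -0.22 and -0.04, did not pass, and changed sign in at least 1 other setting each.

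Among the lower genes, *SER3* (YER081W, chromosome V) had the clearest difference. It encodes 3-phosphoglycerate dehydrogenase, the first step of serine synthesis, and in yeast it is repressed in rich medium by transcription of *SRG1*, a noncoding RNA that runs across its promoter and whose own transcription uses Swi-Snf. *SER3* had 504, 511 and 515 CPM in *snf2Δ* and 43.6, 65 and 48.5 in *snf5Δ*. The *snf5Δ* libraries lay near the 38.4, 44 and 45.7 of wt, and those of *snf2Δ* far above both. The log2 fold change of *snf5Δ* over *snf2Δ* was -3.28 (SE 0.18, adjusted p = 4.0e-09). Against wt, *snf2Δ* stood at 3.58 (adjusted p = 1.0e-09), and *snf5Δ* at 0.30 with an adjusted p of 0.25. *SRG1* itself had 42.4, 41 and 28.9 CPM in *snf2Δ* and 54.5, 36.6 and 38.7 in *snf5Δ*, overlapping groups that were both below the 73.8 to 87.1 of wt, and its log2 fold change between the mutants was 0.21 (adjusted p = 0.71). *SRG1* overlaps *SER3* in the annotation, and the strand setting of the counting is not given in the sources used here.

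*YPR015C* (chromosome XVI), a zinc finger protein gene, behaved like *SER3*, with 37.5, 26.8 and 20.5 CPM in *snf2Δ*, 5.62, 5.11 and 6.58 in *snf5Δ* and 2.96 to 4.99 in wt (log2 fold change -2.29, SE 0.27, adjusted p = 9.2e-05). *GEX2*, a glutathione exchanger gene, had 19.9, 11.3 and 11.7 CPM in *snf2Δ*, 4.39 to 5.06 in *snf5Δ* and 3.76 to 7.63 in wt (log2 fold change -1.61, adjusted p = 0.00314). In *IMD2* and *FUS1* only *snf5Δ* was called below wt. The *snf2Δ* libraries of *FUS1* also lay below those of wt, without a call (log2 fold change -0.57, adjusted p = 0.118). *IMD2*, an IMP dehydrogenase gene of guanine nucleotide synthesis, had 93.3, 110 and 62.5 CPM in *snf2Δ*, 20.8, 29 and 23.9 in *snf5Δ* and 46.6 to 89 in wt (log2 fold change -1.84, adjusted p = 0.00123). *FUS1*, which acts in cell fusion during mating, had 17.4, 15.5 and 13.8 CPM, 5.06, 5.73 and 4.66 and 17.7 to 29.4 in that order (log2 fold change -1.58, adjusted p = 0.00401). *HFM1*, a meiotic DNA helicase gene, had 15.4, 13.5 and 6.52 CPM in *snf2Δ*, 2.25, 1.43 and 1.10 in *snf5Δ* and 10.8 to 22 in wt (log2 fold change -2.87, adjusted p = 0.00196).

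*PRY3*, a cell wall sterol-binding protein gene, was lower than wt in both mutants, with 30.5 to 52.7 CPM in *snf2Δ*, 12.1 to 19.1 in *snf5Δ* and 88.5 to 114 in wt (log2 fold change between the mutants -1.42, adjusted p = 0.00594). *MRH1*, a plasma membrane protein gene, did the same at a higher level, with 265, 173 and 192 CPM in *snf2Δ*, 124, 107 and 141 in *snf5Δ* and 1371 to 1674 in wt (log2 fold change -0.76, adjusted p = 0.0154, not held when *snf2Δ* replicate 1 was left out (0.0878), nor *snf5Δ* replicate 1 (0.0654) or 2 (0.0952)). In a list of 3 genes of the *MRH1* family, the other 2 were positive at an unadjusted p under 0.05 without a call, and the median was 1.13. *YGL039W*, an aldehyde reductase gene, was at -1.16 and *TAT2*, the tryptophan permease gene, at -0.59. *IRC10*, *EMA35*, *MCO14* and *MST28*, at 2.74 to 18.1 CPM in any mutant library, completed the 15 largest lower values with *ADH2*, *MMP1* and *YGR109W-B*. Those 4 had log2 fold changes from -1.42 to -1.23 and lost their calls in 4 (*MST28*) or 5 of the 6 fits that left out a library, each of them when *snf2Δ* replicate 1 or 2 or *snf5Δ* replicate 2 or 3 was missing (adjusted p from 0.0667 to 0.214). In the pheromone list of 24 tested genes, *PRM2* was also called, on 43 counts in *snf2Δ* against 2 in *snf5Δ* (ratio 18.9, 95% exact binomial interval 4.93 to 161), and the list's median was -0.04. The 7 tested a-specific genes all had negative log2 fold changes with a median of -0.41 (-0.29 in TPM relative to all genes) and 0 calls.

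In the list of glucose-repressed genes, 26 of 33 had negative values with a median of -0.58 (-0.40 in TPM relative to all genes). At an unadjusted p under 0.05, 11 were lower and 1 higher, against 7.04% of all genes lower and 5.89% higher. *ADH2*, the glucose-repressed alcohol dehydrogenase, was called lower and *POT1* higher. *ADH2* had 12.6, 14.5 and 7.28 CPM in *snf2Δ*, 1.69, 3.48 and 3.84 in *snf5Δ* and 3.54 to 8.60 in wt (log2 fold change -1.89, adjusted p = 0.0383), a call that held in only 1 of the fits that left out a library, that lacking *snf2Δ* replicate 3 (adjusted p from 0.0742 to 0.174). *SUC2* had 79.2, 96.5 and 60.0 CPM in *snf2Δ* and 26.1, 34.6 and 26.6 in *snf5Δ*, which did not overlap, with 57.2 to 156 in wt, but its log2 fold change of -1.42 missed the threshold (adjusted p = 0.0562). Of 24 tested genes of phosphate uptake and storage, 3 (12.5%) were called lower and 0 higher, against 1.16% and 1.37% of all genes. Their median was -0.10. *PHO3*, a constitutive acid phosphatase gene, had 53.3 to 62.5 CPM in *snf2Δ*, 28.1 to 37.6 in *snf5Δ* and 194 to 278 in wt (log2 fold change -0.84, adjusted p = 0.0246). *GIT1*, a glycerophosphoinositol permease gene, had 5.37 to 8.50 CPM and 1.23 to 2.19 (log2 fold change -2.15, adjusted p = 7.7e-04), and *PHO89*, a sodium-phosphate cotransporter gene, had at most 2.75 CPM. The calls of *PHO3* and *PHO89* did not hold when replicate 1 or 2 of either mutant was left out, nor that of *PHO89* when *snf5Δ* replicate 3 was (adjusted p from 0.0726 to 0.173).

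A single stretch of chromosome VII held a large share of the lower genes. Between YGR109W-B and YGR122W (chrVII, 707610 to 735143, 27.5 kb), all 13 tested genes had negative log2 fold changes, from -1.35 to -0.41 with a median of -1.02, and 10 of them were called lower. These 10 are among 16 lower genes on chromosome VII, which holds 8.65% of the tested genes. The 24 tested genes beside the stretch had a median of 0.01 and 0 calls. Without the stretch, 57 genes were lower in place of 67.

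The genes of the stretch have unrelated functions. *NUP57*, a nuclear pore protein gene, had 151, 144 and 168 CPM in *snf2Δ*, 68.3, 78.8 and 81.2 in *snf5Δ* and 83.7 to 88.3 in wt (log2 fold change -1.02, SE 0.10, adjusted p = 1.6e-05). *SPT6*, a histone chaperone and transcription elongation factor gene, had 508, 537 and 546 CPM, 285, 295 and 278 and 287 to 342 in that order (log2 fold change -0.89, adjusted p = 7.9e-05). *DAM1*, a kinetochore protein gene, had 65.1, 58.8 and 67.3 CPM, 28.4 to 33.5 and 22.3 to 27.6. In these 3 genes the *snf2Δ* libraries stood apart from those of both other strains. *YGR117C*, *COG2*, *YGR111W* and *YGR122W* had -1.03, -0.86, -0.90 and -1.03, and *CLD1*, a cardiolipin phospholipase gene, had -1.06 (adjusted p = 0.0431), not held when replicate 1 of either mutant, *snf2Δ* replicate 2 or *snf5Δ* replicate 3 was left out (adjusted p from 0.157 to 0.182). *YGR109W-B*, a Ty element gene, and *RPS23A* also passed, both with near copies elsewhere in the genome, and the call of *RPS23A* did not hold when *snf2Δ* replicate 2 or 3 or *snf5Δ* replicate 1 or 2 was left out (adjusted p from 0.0629 to 0.127). *SHY1*, *MEP1* and *YGR121W-A*, at -0.80, -0.41 and -1.15, did not pass, and *MEP1* was at 0.0026 on the log2(TPM + 1) scale. On that scale, where the median of all genes was 0.30, the 10 called genes had -0.77 to -0.55 and none kept its call (adjusted p from 0.217 to 0.43).

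Against wt, the 13 genes had a median log2 fold change of 1.03 in *snf2Δ*, where 12 were called above wt, and of 0.13 in *snf5Δ*, where 1 was called, *CLD1*. The same difference between the mutants was present in YPD, in other libraries of the same strains, with a median of -0.95 over the 13 genes. The stretch was found in the data and not named beforehand, so that the counts within it are a description. The number of DNA copies of the stretch was not tested. The medians of the nuclear chromosomes as wholes were between -0.05 and 0.03. Elsewhere, called genes that were neighbours and moved the same way came in pairs, among them *PRM7* and *BSC1*, *ATP14* and *YLR297W* and *GSP2* and *TUF1* among the higher genes, and *PRM9* and *MST28*, *RDS1* and *AAD3*, *CPP2* and *YDR210W-B*, *MHT1* and *MMP1* and *TAT2* and *TOS7* among the lower ones.

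**Figure D4:**
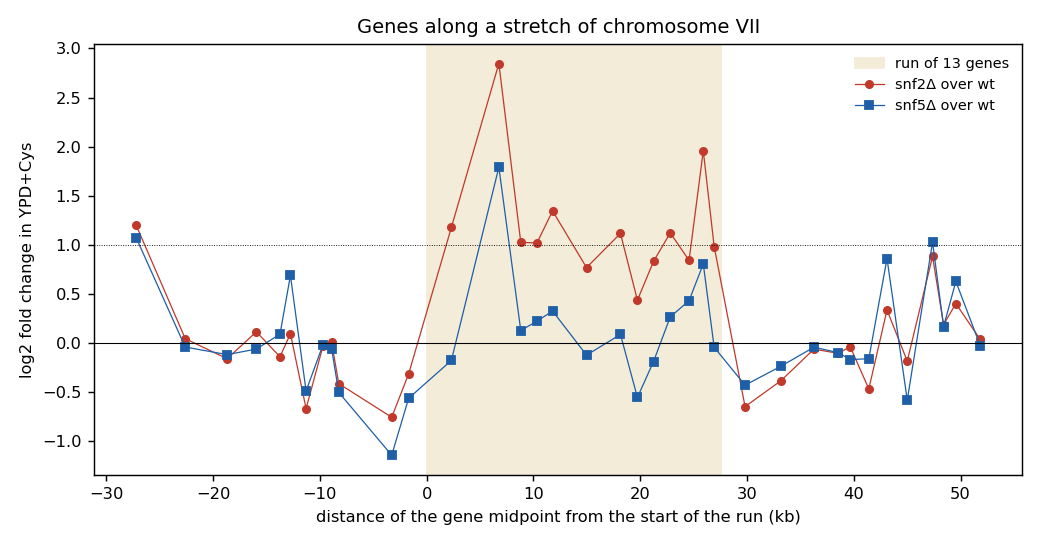
Log2 fold change over wt in YPD+Cys for *snf2Δ* (red) and *snf5Δ* (blue) against the distance of each gene's midpoint from the start of the chromosome VII stretch in kb; the shaded part is the run of 13 genes and the dotted line marks a log2 fold change of 1. Inside the stretch the red points have a median of 1.03 and the blue points of 0.13, and outside it the 2 colours run together.

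The difference between the mutants was largely the same without added cysteine. In YPD, 97 genes (1.68%) were higher and 75 (1.3%) lower in *snf5Δ* than in *snf2Δ*. These 6 libraries are others than those compared above, but of the same strains and from the same fit. Libraries of the same number deviated together in both media, as given below, so the comparisons are not independent. Of the 79 genes higher with cysteine, 78 were also positive in YPD and 57 were also called there, which is 72.2% of the former and 58.8% of the latter list. Of the 67 lower genes, 65 were negative and 41 also called, or 61.2% and 54.7%. No gene was called in opposite directions. *SER3* had -3.38 in YPD, *FIT3* 2.60 and *YML131W* 2.15 against -3.28, 2.12 and 2.04 with cysteine.

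Whether the difference itself changed with cysteine was tested as an interaction of strain and medium. At an adjusted p under 0.05 no gene passed (0%; 64 genes with an unadjusted p under 0.05, smallest adjusted p = 0.653, and 0 calls also with DESeq2). Libraries of a strain with the same number in YPD and YPD+Cys deviated together, with correlations of 0.59, 0.49 and 0.80 in *snf2Δ* and 0.52, 0.25 and 0.53 in *snf5Δ*. With these pairs as a block, which was added to the plan once the data had been seen, 10 genes (0.174%) passed, all with a more negative difference in YPD+Cys than in YPD. They were *MET3*, *MET22*, *SUL1*, *HOM6*, *MHT1*, *MMP1* and *YCT1*, which act in sulfate uptake and reduction, the synthesis of homoserine, homocysteine and methionine, or the transport of sulfur compounds, and *ZWF1*, *TDH1* and *YHR112C*. The block count was 0 without the *snf2Δ* pair 1 or 2 or the *snf5Δ* pair 1 or 3, 3 without the *snf5Δ* pair 2 and 19 without the *snf2Δ* pair 3. The YPD libraries *snf2Δ* 2 and 3 and *snf5Δ* 3, where reads of several possible places made up 53.5%, 44.6% and 71.4%, take part in these pairs. Without these 3 libraries and without pairs, 0 genes passed (67 with an unadjusted p under 0.05, smallest adjusted p = 0.237). A block of replicate numbers over all groups, which was in the plan, also gave 0 genes (100 with an unadjusted p under 0.05, smallest adjusted p = 0.259).

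For 38 sulfur genes in 4 lists, most changes of the difference were negative. The difference of *snf5Δ* over *snf2Δ* had a median of 0.21 in YPD and -0.24 with cysteine, where 28 genes were negative, and the change of the difference was negative in 31 of the 38 with a median of -0.38, against 48.6% of all genes. At an unadjusted p under 0.05, 14 of the 38 were negative and 0 positive, against 39 negative and 25 positive among all 5757 tested genes. *SUL1*, a high-affinity sulfate permease gene, had 12.3, 12.8 and 18.9 CPM in *snf2Δ* and 54.2, 84.8 and 126 in *snf5Δ* in YPD, but 8.61, 4.25 and 3.83 and 4.78, 7.36 and 5.21 in YPD+Cys. The mutants were far apart in YPD and overlapped with cysteine. The log2 difference changed by -2.49 (SE 0.67, unadjusted p = 0.00188, adjusted p = 0.9998, and 0.0176 in the paired fit). *MET3*, the ATP sulfurylase gene, had 139, 157 and 244 CPM in *snf2Δ* and 189, 249 and 359 in *snf5Δ* in YPD, and 33.3, 37.5 and 27.6 and 14.1, 18.4 and 19.2 in YPD+Cys. The *snf5Δ* libraries overlapped those of *snf2Δ* in YPD and all lay below them with cysteine, with a change of -1.47 (SE 0.33, adjusted p = 0.653, and 0.0138 in the paired fit). *YCT1*, the high-affinity cysteine transporter gene, had 25.1 to 28.3 CPM in *snf2Δ* and 45.3 to 54.3 in *snf5Δ* in YPD, and 18.6 to 25.3 and 15.4 to 21.7 in YPD+Cys.

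With cysteine itself, 3 of the 38 sulfur genes were called, 1 higher and 2 lower, against 2.54% of all genes. *MMP1*, the S-methylmethionine permease gene, had 21.4, 32.3 and 18.2 CPM in *snf2Δ* and 8.99, 10.8 and 11.5 in *snf5Δ*, with 19.3 to 34.2 in wt (log2 fold change -1.18, SE 0.24, adjusted p = 0.0111). *MHT1*, the S-methylmethionine-homocysteine methyltransferase gene beside it on chromosome XII, had 6.62, 6.50 and 5.94 CPM and 1.97, 3.07 and 1.92, with 4.84 to 8.80 in wt (log2 fold change -1.40, SE 0.29, adjusted p = 0.0129). In both genes *snf2Δ* lay at the level of wt and every *snf5Δ* library was below it. In YPD the same 2 genes had 0.09 and 0.34 (adjusted p = 0.905 and 0.552). *SAM3*, the S-adenosylmethionine permease gene, was higher in *snf5Δ*, with 43.3, 51.1 and 40.9 CPM against 22.1, 19.5 and 16.3 (log2 fold change 1.23, adjusted p = 0.00634). The call of *MMP1* did not hold when *snf2Δ* replicate 2 (adjusted p = 0.0771) or *snf5Δ* replicate 1 (0.0667) or 2 (0.0535) was left out, and that of *MHT1* when *snf2Δ* replicate 1 (0.0616) or *snf5Δ* replicate 1 (0.0716) or 3 (0.065) was.

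**Figure D5:**
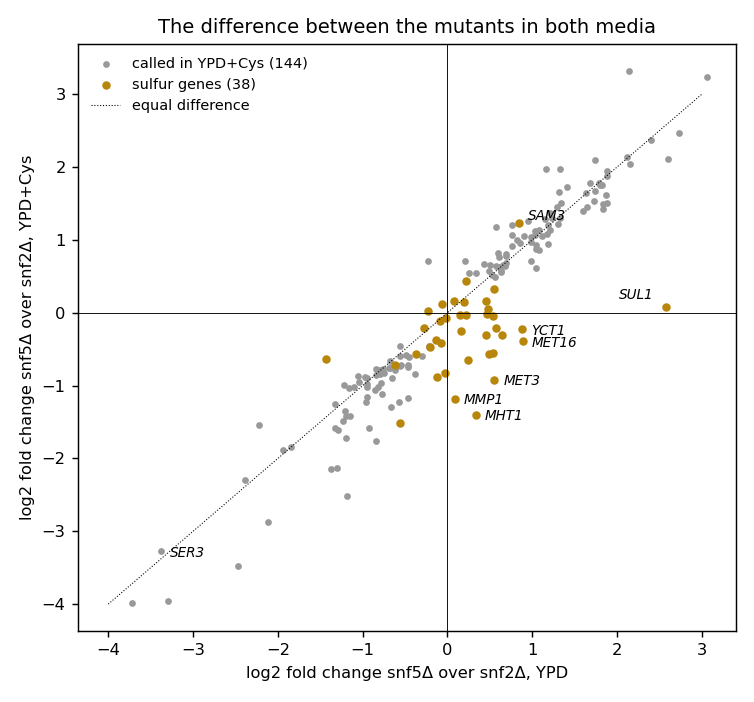
Log2 fold change of *snf5Δ* over *snf2Δ* in YPD+Cys against that in YPD for the 144 called genes other than *SNF2* and *SNF5* (grey) and for 38 sulfur genes (gold), with 1 point per gene; the dotted line marks an equal difference in both media. Grey points were chosen by their value on the vertical axis and lie along the line, while most gold points lie below it, *SUL1* farthest at 2.58 in YPD and 0.08 in YPD+Cys.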

How the data were processed

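Per the labels and the study's methods, the authors demultiplexed paired-end reads of ribosome-depleted total RNA with bcl2fastq 2.18 and aligned them with STAR 2.7.3a to sacCer3. The deposited count table holds STAR read counts per gene, not normalized, which leave out reads with several places in the genome, so that Ty elements and near copies are undercounted; its strand setting is not given in the sources used here. The authors also deposited RSEM 1.3.0 expected counts, in which such reads are shared out, and TPM values scaled by gene length and library; both served only as alternatives.

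The counts, without the 4 rows that name no gene (14.8 to 24.6% of reads in *snf2Δ* and 16.0 to 19.6% in *snf5Δ* with cysteine), were filtered with filterByExpr, scaled by TMM and tested with the quasi-likelihood F-test of edgeR 4.0.16 (R 4.3.3). All 18 libraries were fitted as 6 groups, and genes were called at a Benjamini-Hochberg adjusted p of 0.05 over 5757 genes. The alternatives were other scalings, filters and samples, DESeq2 1.42.0, limma 3.58.1 on log2(TPM + 1) and log2(TPM + 0.1), expected counts rounded to whole numbers, a replicate block and leaving out each library. The tests were tried on simulated counts. The lists and compared libraries were chosen with earlier results of these data known. Genes are named where they are beside or are the deleted genes, are among the 15 called genes per direction with the largest difference at 10 CPM or more and non-overlapping libraries, belong to a list described, or show a pattern over the groups that is described. Promoter windows of 250 bases and motifs were read from the RefSeq R64 assembly. Depth limits precision at low levels: 24 of the called genes were under 10 CPM in both mutants. A gene that is part of these results is not reported here.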

Additional observations from a re-analysis of the deposited data

How the results depend on the processing

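The counts of genes higher and lower in *snf5Δ* than in *snf2Δ* with cysteine, 79 and 67, stayed within 1.5 times under RLE factors, library totals, no filter, DESeq2, expected counts and nuclear protein-coding genes. The lower count was 42 with at least 10 counts in every library and 41 with only the groups compared. That last fit called 95 genes, of which 83 were among the 146 of the main fit. Among the genes that lost the call there were *FET3*, *HSP82*, *SSA4*, *TPO2*, *RNR3*, *QCR2*, *MRH1*, *MMP1* and *MHT1*. TPM gave 45 higher and 5 lower genes with a pseudocount of 1, and 32 and 5 with 0.1. Leaving out 1 library gave 40 to 97 higher and 38 to 89 lower genes. Same-numbered deviations of the mutants correlated at 0.48, 0.07 and 0.58, and differently numbered ones at -0.58 to 0.28. Of 3 *snf2Δ* libraries, 2 correlated best with their own number, and the main fit did not use the numbers. A replicate block over all groups called 146 higher and 120 lower genes, and the block of each strain gave 10 genes in place of 0 for the change of the difference with cysteine; no other setting called any gene there. Of 69 called genes followed through the settings, 25 were called in all settings that could be run and 43 lost the call in at least 1. Of these 43, 24 lost it without 1 library, each of them also in another kind of setting. The remaining 1 reversed, *YER053C-A* at -0.16 on both TPM scales. Genes that were not called changed sign too: *YPK9* was at 0.053 with library totals, 0.26 and 0.28 in TPM and -0.16 to 0.082 without 1 library, *YOR289W* at 0.071 and 0.073 in TPM, *MEP1* at 0.0026 and 0.0042 in TPM and *BSD2* between -0.12 and 0.11 without 1 library. Library totals and the 2 TPM scales shifted the median of all genes by 0.084, 0.30 and 0.32, which is about as much as *YPK9* and *YOR289W* moved there; the cause of the other changes was not tested.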
